A study of Mus musculus with 8 samples.

Results

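Regions of N6-methyladenosine (m6A) enrichment that were called in both libraries of one muscle group and in no library of the other were described in genes that also carried a region called in every library. Peaks were linked where their blocks had at least 1 base in common on a strand, which gave 13116 regions over the 4 lists. Of these, 4541 regions held a peak of all 4 lists, in 2913 genes, and are called shared regions here. In the same genes, 157 regions were called in both innervated lists and in no denervated list, in 148 genes, and 104 regions were called in both denervated lists and in no innervated list, in 96 genes. They are called innervated-only and denervated-only regions. The 261 regions lay in 244 genes, and 0 genes held both kinds. The 157 innervated-only regions were 2.15% of the 7299 regions of genes with a shared region, and the 104 denervated-only regions were 1.42%. Pairs of 1 innervated and 1 denervated list, with no other list, held 79, 93, 108 and 150 regions of the same genes. The denervated-only count was within this range and the innervated-only count above it. Over all 13116 regions, with or without a shared region in the gene, 4.2% were innervated only and 3.67% were denervated only. The regions were chosen by these presence and absence calls, so the counts and shares are descriptions and carry no test.

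The RNA came from C57BL/6 mice, males aged 10 weeks, and from the gastrocnemius muscle of the calf. Denervated muscle was taken 14 days after denervation, and the opposite, still innervated muscle, labelled untreated, was the control. Each group had 2 replicates with an antibody-captured and an input library each, 8 libraries in all, and 1 peak list was deposited per captured library. How the nerve was interrupted is not given in the sources used here, and the labels do not say whether replicate numbers mark separate animals, so differences between replicates may be technical. The lists held 9327 and 10300 peaks for innervated replicates 1 and 2, and 9804 and 9496 peaks for denervated replicates 1 and 2. Read counts were not analysed here, so library depth and transcript levels are unknown, and a region missing from a list was not called there, which does not show that its RNA was unmethylated. In whole muscle, fewer cells of a type and less RNA per cell cannot be told apart. Of 10 muscle fibre markers, 0 had a peak in any list, so these markers give no check of the tissue label. In the gene lists used below, 24 of 49 sarcomere and cytoskeleton genes and 18 of 27 excitation and calcium handling genes had a peak. Peaks were called for 13 of 16 endothelial and perivascular markers, 6 of 11 Schwann cell markers, 5 of 10 satellite cell markers, 6 of 9 fibro-adipogenic markers and 2 of 11 macrophage and immune markers, but only 5, 2, 1, 3 and 1 of these genes, in the same order, had a shared region and so could hold a group-specific region by the rule, and 0 did, where 5.08% of all genes with a shared region held an innervated-only and 3.30% a denervated-only region. The presence of a peak is no measure of how many such cells a muscle held.

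N6-methyladenosine is placed on RNA mainly by a nuclear complex built around METTL3 and METTL14, and it is read by YTH-domain proteins that affect splicing, translation and decay. In mammalian messages it is concentrated around stop codons and in 3′ untranslated regions. At the cap, a first transcribed adenosine can carry a related methylated form that antibodies against N6-methyladenosine also bind. Fragments captured by the antibody are longer than 1 nucleotide, so neighbouring peaks need not hold separate modified sites.

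Some group-specific regions had their 5′ edge on an annotated start of transcription, and their first bases are shown. Peak edges in these lists lie on a spacing of about 50 bases, as given below. Such an edge is therefore the limit of a call and not a measured end of the enrichment. A RefSeq start (GRCm38.p6, the mm10 assembly) was found for 191 of the 244 genes, or 78.3%, which is too few for a check over the whole set. In 7 genes the 5′ edge of the region and the start were the same base, on the minus strand in each. Why all were on this strand was not tested. These 7 were picked for this match, with their values known. Not all of these starts were the 5′ end of the gene. The regions of Dll1, Arhgap21, Stxbp5, Cdk13 and Pogk lay 1108, 969, 246, 114 and 24 bases from the 5′ end of the RefSeq span. Each line gives 30 bases, 5′ to 3′, and capitals mark the 25 bases inside the region. In Pogk the denervated lists shared only 1 base of the region, so its capitals do not mark a stretch called in both lists. Of the other genes, only Cdk13 had the same bases called in both lists over the whole region. For the rest, whether both lists called the bases in capitals was not checked.
Dll1, denervated only (chr17:15375799-15375828): cgaggCTTGGCGATAGTGCAAGAGATACCG
Stxbp5, denervated only (chr10:9901016-9901045): tgcggGCCGGGCGGCTGCGCTGAACGGAGG
Arhgap21, denervated only (chr2:20967697-20967726): ttccaGGAAGGCTCTCCGAAAGCTGATTTT
Pogk, denervated only (chr1:166409804-166409833): accacGTGTCCTCGCTCCCTCCCGAGGGGC
Tceanc2, denervated only (chr4:107178342-107178371): gaagtGTAGTTCCTGCGGGTCACCAGCGAG
Cdk13, innervated only (chr13:17805073-17805102): ggtgtCGCCGCCGCCGCCACAGGACGACGT
Igf2r, innervated only (chr17:12769682-12769711): cgtgaCGCTCCGGGGACGGCCACGGAGCGC
The first transcribed base of these 7 starts was A in 0 cases, with an exact (Clopper-Pearson) 95% upper limit of 41.0%, while 34.4% of 32851 RefSeq start windows began with A. The 4-letter stretch GGAC, the core of the usual m6A motif, was searched on the transcribed strand of the 25 bases. It was present in Cdk13 and Igf2r and in 0 of the 5 denervated-only windows, against 9.09% of all RefSeq windows. A match is a description of these letters and not a modified site.

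Group-specific regions were often close neighbours of a shared region, but no more often than other regions of the same genes. The gap to the nearest shared region, counted in genomic bases with introns included, had a median of 693 bases over the 157 innervated-only regions, with quartiles of 198 and 4988 and a range of 48 to 111787. Over the 104 denervated-only regions the median was 548, the quartiles 99 and 5765.75 and the range 48 to 430522. A gap of up to 500 bases was found for 65 innervated-only regions, or 41.4%, with an exact 95% interval of 33.6% to 49.5%, and for 50 denervated-only regions, or 48.1%, with an interval of 38.2% to 58.1%. These intervals cover counting error only. In the same genes, 51.6% of the 430 regions called in 1 innervated and 1 denervated list lay that close, as did 48.8% of the 1359 regions of 1 list and 50.1% of the 708 regions of 3 lists. The denervated-only interval included all 3 of these shares, and the innervated-only interval included 48.8% and ended below the other two.

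**Figure D1:**
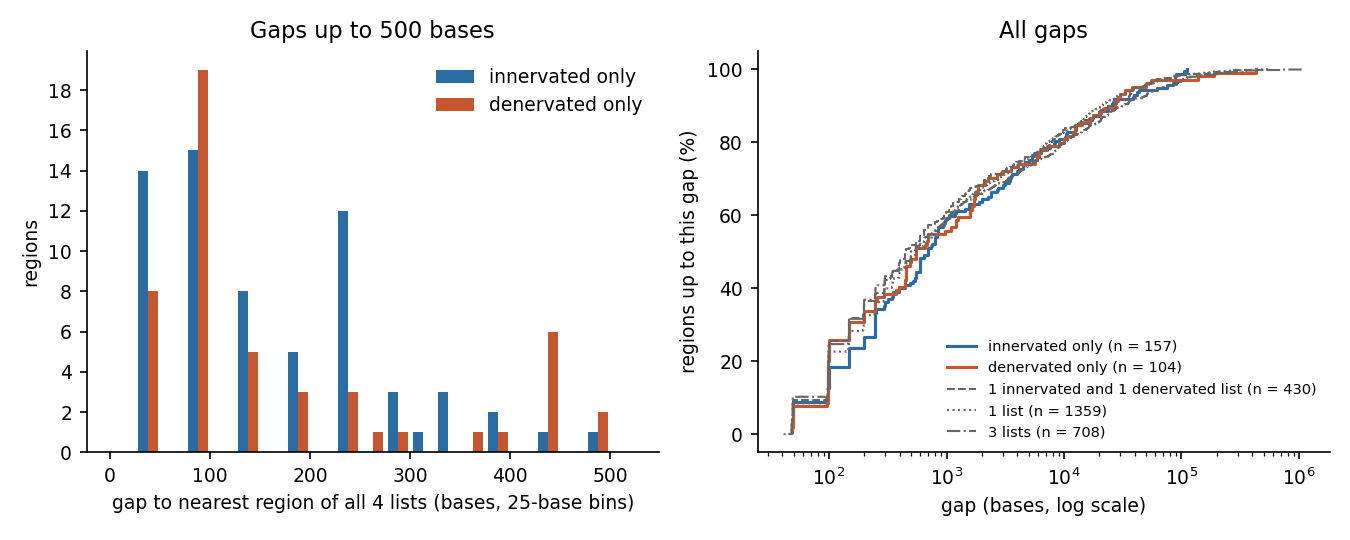
Gap in bases between each group-specific region and the nearest region of all 4 lists. The left panel counts regions in 25-base bins up to 500 bases for 65 innervated-only and 50 denervated-only regions, which pile up in separate columns about 50 bases apart; the right panel gives the cumulative share of regions against the gap on a log axis, with the other regions of the same genes as grey lines lying close to the coloured ones.

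The short gaps fell on a regular step. Of the 115 regions within 500 bases of a shared region, 99, or 86.1%, had a gap within 3 bases of a multiple of 50. There were 22 gaps of 48 or 49 bases, 34 of 97 to 99, 13 of 147 to 149 and 8 of 197 to 199, and the smallest gap was 48. Peak edges in these lists therefore lie on a spacing of about 50 bases, and a gap of 48 or 49 is 1 such step between neighbouring calls. The part of this spacing in what was called group-specific was not tested.

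The nearest neighbours were named by the size of the gap. Among denervated-only regions, Zfp81, a zinc finger protein gene, and Il6ra, which encodes the ligand-binding chain of the interleukin-6 receptor, lay 48 bases from a shared region, and Igfbp5, a secreted binder of insulin-like growth factors, Purb, a single-stranded DNA and RNA binding protein, and Mapk7, the kinase ERK5, lay 49 bases away. In Il6ra (chr3:89870820-89870970, minus strand) the region was just over 100 bases wide in denervated replicate 1 and 151 in replicate 2, on the 5′ side of the nearest of 3 shared regions, which was 650, 700, 650 and 650 bases wide in innervated 1, innervated 2, denervated 1 and denervated 2. This shared peak of Il6ra was thus of nearly the same width in all 4 lists, and it reached nearest to the group-specific region in innervated 2, 48 bases away. In Purb (chr11:6475278-6475527, minus strand) the region lay on the 3′ side of the nearest of 3 shared regions, 200 bases wide in denervated replicate 1 and 151 in replicate 2. This shared peak of Purb was 300 and 350 bases wide in the innervated lists and 250 and 200 bases in the denervated lists, and its 3′ edge came to 149 and 49 bases of the denervated-only region in innervated muscle but to 299 bases in both denervated lists. So the innervated calls in Purb ran farther towards the stretch that only denervated muscle had called.

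Among innervated-only regions, Cep350, a centrosomal protein gene, Pitpnm2, a phosphatidylinositol transfer protein gene, and Spsb2, which encodes a SOCS box protein, lay 48 bases from a shared region. Lmod1, an actin filament nucleator best known from smooth muscle, and Lrrc20 lay 49 bases away. In Cep350 (chr1:155846808-155846908, minus strand) both innervated lists called the same stretch of just over 100 bases. The shared region beside it was 500 bases wide in both innervated lists, 549 in denervated 1 and 599 in denervated 2, and its denervated 2 peak came nearest, at 48 bases against 98 in the other lists. In Hspg2 (chr4:137570181-137570480, plus strand), the gene of the basement membrane proteoglycan perlecan, the order was the opposite. The innervated-only region of Hspg2 was 200 bases wide in replicate 1 and 300 in replicate 2, the shared peak ended 99 bases before it in both innervated lists and 199 bases before it in both denervated lists, and the shared peak itself was 450 and 450 bases wide in innervated muscle against 350 and 300 in denervated muscle.

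**Figure D2:**
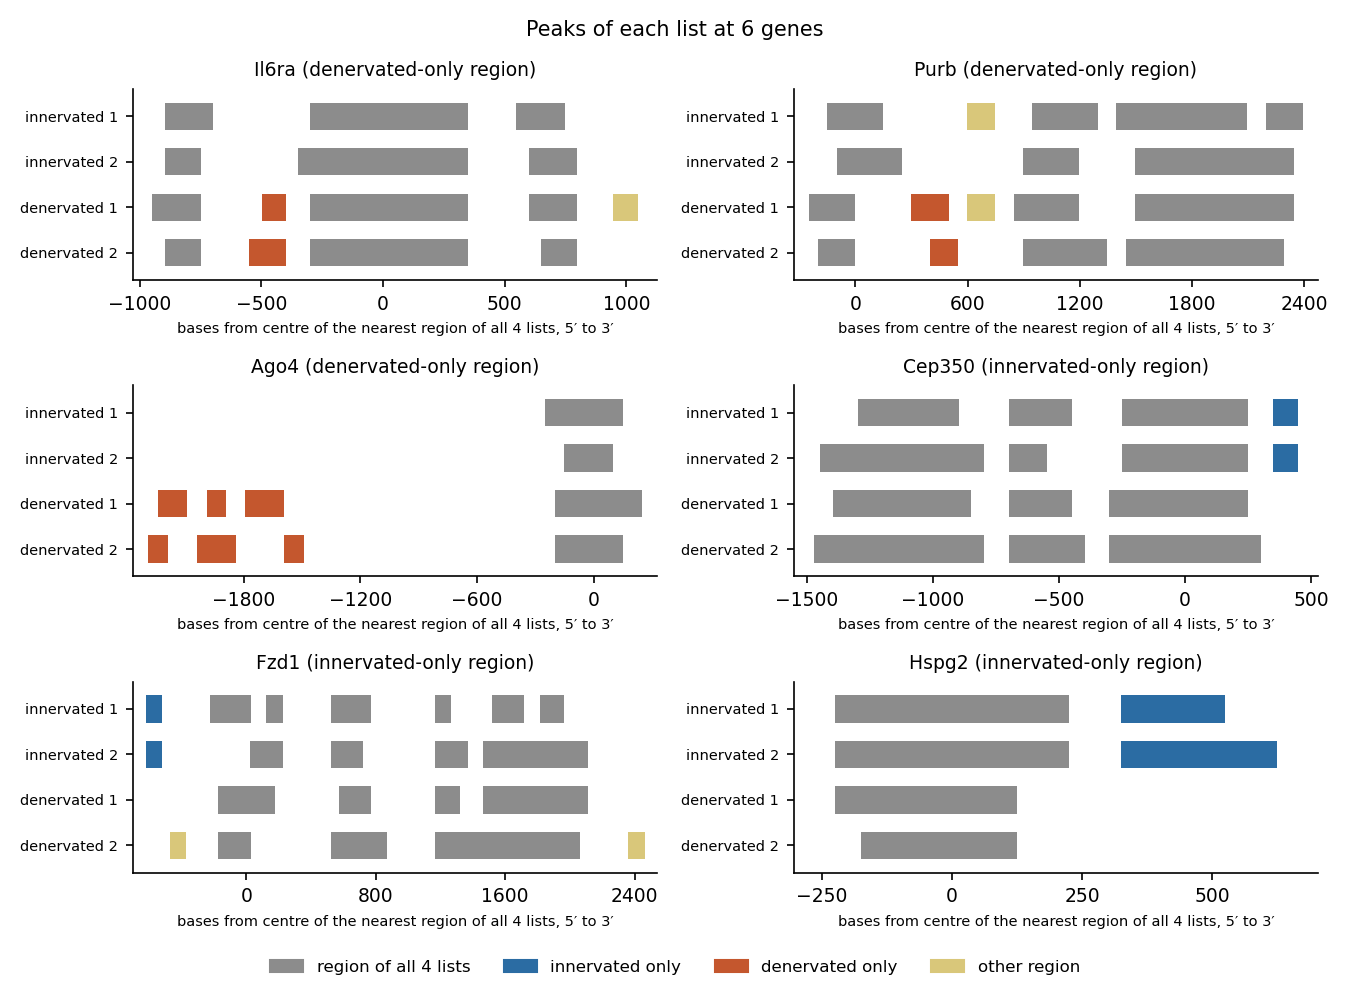
Peaks of each list at 6 genes, placed by the distance in bases from the centre of the nearest region of all 4 lists along the direction of transcription. Rows are the 4 lists and bars are peaks: grey bars are shared regions, blue bars innervated-only regions, red bars denervated-only regions and yellow bars other regions; in Hspg2 the grey innervated bars end nearer to the blue region than the grey denervated bars do, and in Purb the grey innervated bars end nearer to the red region.

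Neither order was the rule. Of the 50 denervated-only regions within 500 bases, both denervated calls of the shared region reached nearer than both innervated calls in 8, both innervated calls reached nearer in 6, and the lists overlapped in 36. Of the 65 innervated-only regions, the calls of the same group reached nearer in 9, those of the other group in 3, and they overlapped in 53. Fen1, the flap endonuclease of DNA replication and repair, and Lmod1 were of the first kind. In Fen1 (chr19:10199872-10200711, minus strand) the shared peak came to 147 and 97 bases of the region in denervated 1 and 2 and to 245 and 196 bases in innervated 1 and 2. The shared neighbours of denervated-only regions had a median width of 484.5 bases in denervated muscle and 384.75 in innervated muscle, as means of the replicates, and were wider in denervated muscle in 30 of 50. The neighbours of innervated-only regions had medians of 466.5 in innervated muscle and 425.5 in denervated muscle and were wider in innervated muscle in 36 of 65. These widths come from the lists that chose the regions and are given without a test.

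A peak of the other group was often not far away. The nearest peak of either denervated list lay a median of 402 bases from an innervated-only region, within 500 bases for 83 of 157 (52.9%) and within 50 bases for 18. The nearest peak of either innervated list lay a median of 303 bases from a denervated-only region, within 500 bases for 60 of 104 (57.7%) and within 50 bases for 12. Some regions were close to losing their place, at 48 or 49 bases from a peak of the other group. For innervated muscle they included Cep350, Slc39a3, a zinc transporter gene, Rcan1, an inhibitor of calcineurin, Ston1, an endocytic adaptor gene, and Fzd1, a Wnt receptor. For denervated muscle they included Zfp81, Il6ra, Snai3, a Snail family repressor, Pogk and Purb. Ties were cut by position, and others were as near, such as Pitpnm2 and Spsb2 at 48 bases and Mapk7 and Chd8 at 49. Just outside the rule were regions of 3 lists that shared 1 base with the third list. These were Carns1, N4bp3, Npat, Prrc2c and Twist1 on the innervated side, and Ankrd27, Bcl9 and Six4 on the denervated side, followed by Lmtk2 with 2 bases and Inppl1 with 50. The third list shared at most 50 bases in 15 of 398 regions of both innervated lists and 1 denervated list, and in 8 of 310 regions of both denervated lists and 1 innervated list.

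Denervated-only regions lay mostly on the 5′ side of their shared region, while innervated-only regions were evenly split. The 5′ side held 72 of 104 denervated-only regions, or 69.2%, with an exact 95% interval of 59.4% to 77.9%, and 77 of 157 innervated-only regions, or 49.0%, with an interval of 41.0% to 57.1%. For gaps over 500 bases the counts were 40 of 54 and 41 of 92, or 74.1% and 44.6%. For gaps of up to 500 bases they were 32 of 50 and 36 of 65, or 64% and 55.4%. The same share differed between libraries. Regions called only in denervated 2 were on the 5′ side in 68.8% of 468, whereas regions called only in denervated 1, innervated 1 or innervated 2 were so in 50.7% of 227, 52.9% of 244 and 49.0% of 420. Among regions of 2 lists, the share was 56% to 69.2% in the 3 combinations with denervated 2 and 38.0% to 50.6% in the 3 without it. Among regions of 3 lists the shares lay closer, at 48.9% to 61.3% in the 3 combinations with denervated 2 and 47.4% in the 1 without it. With denervated replicate 2 left out, the denervated-only share was 58.1% and the innervated-only share 55.6%, a difference of 2.48 percentage points in place of 20.2. Other changes narrowed it too: the difference was 4.96 points without innervated replicate 2, with a denervated-only share of 55.8%, 10.3 without innervated replicate 1 and 17.1 without denervated replicate 1, and it was 6.59 with reciprocal overlap of 50% and 7.18 and 7.35 in the 50% of peaks with the smallest and the largest scores. The denervated-only share stayed the higher one in each of these. The part of denervated replicate 2 in the 5′ side of the denervated-only regions was not tested further, and with 2 lists a group it cannot be told apart from denervation by these lists alone.

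**Figure D3:**
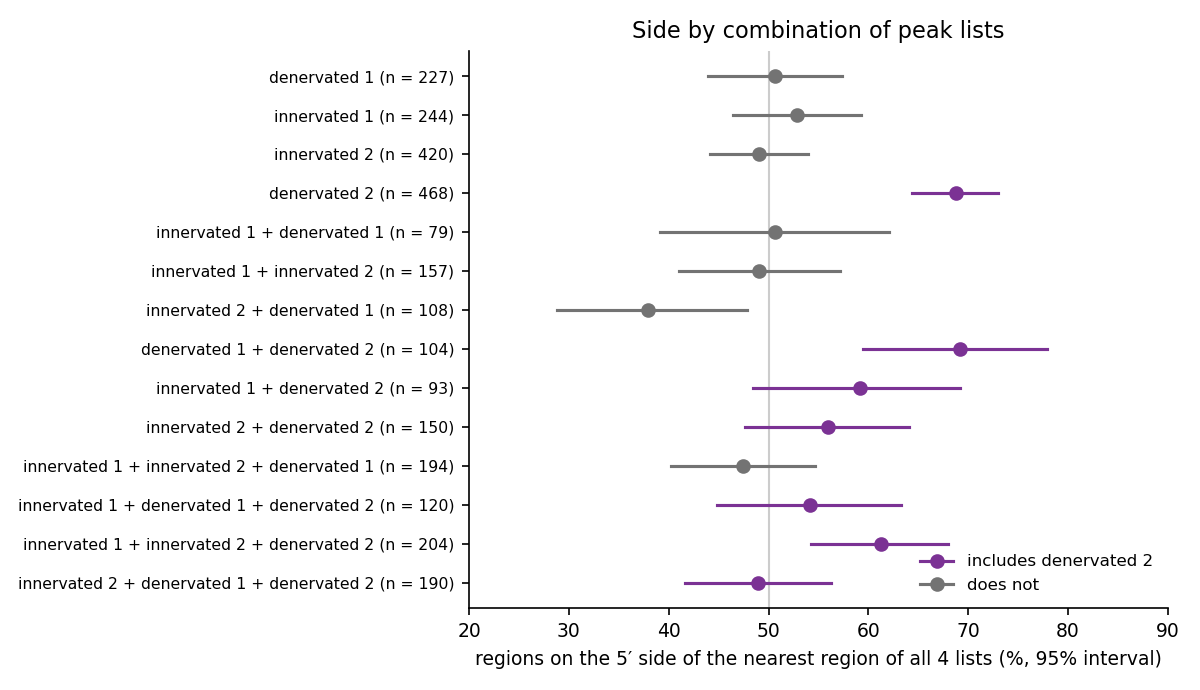
Share of regions on the 5′ side of the nearest region of all 4 lists, in percent, for each combination of lists in genes with such a region, with exact 95% binomial intervals as bars. Regions called only in denervated 2 (68.8%) and the denervated-only regions (69.2%) stand highest, and regions called only in the other single lists lie between 49.0% and 52.9%.

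The place within the gene gave a like pattern. Along the RefSeq span of the gene, introns included, from 0% at the 5′ end to 100% at the 3′ end, innervated-only regions had a median place of 83.3%, close to the 83.8% of shared regions, and denervated-only regions had a median of 69.4%. The last 10% of the span held 63 of 157 innervated-only regions (40.1%), 38.9% of shared regions and 23 of 104 denervated-only regions (22.1%). Regions called only in denervated 2 again were near the denervated-only value, at 21.0% in the last 10% against 34.4% to 44.9% for the other 3 lists. The first 10% held 22 innervated-only regions (14.0%) and 12 denervated-only regions (11.5%), against 4.66% of shared regions. A low place was not particular to these 2 kinds. Their lower quartiles were 33.3% and 40.2%, against 52.7% for shared regions. Other regions of the same genes had lower quartiles of 36.8% (1 innervated and 1 denervated list), 27.6% (1 list) and 43.0% (3 lists). Within 100 bases of the 5′ end of the span there were 9 innervated-only regions (5.73%), 7 denervated-only regions (6.73%) and 4.84% of shared regions, and 12.2% of the regions called only in denervated 2.

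**Figure D4:**
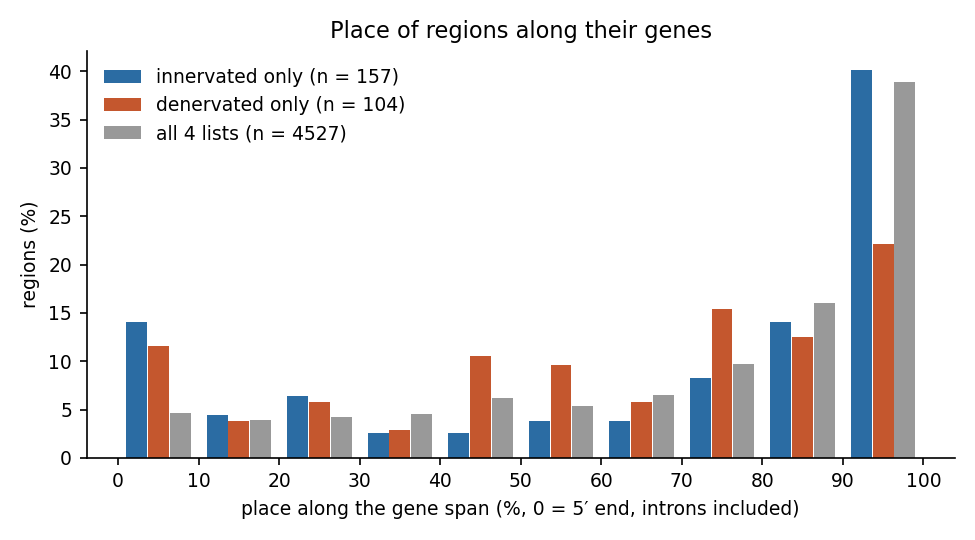
Share of regions, in percent, in each 10% of the RefSeq gene span from the 5′ end to the 3′ end, for innervated-only, denervated-only and shared regions. The last 10% holds 40.1% of innervated-only, 22.1% of denervated-only and 38.9% of shared regions.

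A few regions lay very far from any shared region of their gene. The farthest denervated-only regions were in Wbscr17 (430522 bases), now Galnt17 and a member of the polypeptide N-acetylgalactosaminyltransferase family, in Ldlrad4 (189370 bases), an inhibitor of TGF-beta signalling, in Stxbp5 (138118 bases), the syntaxin-binding protein tomosyn, in Fam160a1 (54499 bases) and in Arhgap5 (49875 bases), a GTPase-activating protein. Stxbp5 had its region at 0.221% of the span, at the start shown above, and Wbscr17 at 99.7%. Distance from a shared region was not distance from any call: in Wbscr17 an innervated 2 peak lay 448 bases away. The farthest innervated-only regions were in Nrp2 (111787 bases), a coreceptor for semaphorins and VEGF, in Mtcl1 (105262 bases), a microtubule crosslinking protein gene, in Tsc22d1 (90059 bases), a leucine zipper protein gene, in Ehbp1 (88670 bases) and in Kansl1 (88418 bases), a subunit of a histone acetyltransferase complex. In Nrp2 (chr1:62703417-62703765, plus strand) the region was 250 bases wide in innervated 1 and 300 in innervated 2, at 0.237% of the span, and a denervated 2 peak lay 199 bases from it. In Mtcl1 the peaks of the innervated lists overlapped by 1 base. Of these 10 regions, those of Wbscr17, Arhgap5, Nrp2 and Mtcl1 had a peak of the other group nearer than the nearest shared region, and the others did not.

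Group-specific regions were narrow. Both kinds had a median width of 200 bases, with quartiles of 150 and 251 for innervated-only and 150 and 250.25 for denervated-only regions, against a median of 593 for shared regions. With either list of a group left out, so that the group rested on 1 list, its median was just over 100 bases. Regions of 1 innervated and 1 denervated list also had a median of 200, regions of 1 list just over 100 and regions of 3 lists 251, so width rose with the number of lists, which is built into linking. The widest denervated-only regions were in Fen1 (840 bases), in Dusp27 (647 bases), an atypical phosphatase family gene of striated muscle, and in Dll1 (597 bases), a Notch ligand. Dll1 (chr17:15375227-15375823, minus strand) was called over 448 bases in denervated 1 and 597 in denervated 2, while the nearest of its 3 shared regions was 150 bases wide in both denervated lists and narrower, just over 100 bases, in both innervated lists. In Dll1 the denervated-only region, whose 5′ edge lay 1108 bases inside the RefSeq span of the gene, was thus wider than this nearest shared region was in any list. The widest innervated-only regions were in Cuedc1 (598 bases), in Kcna1 (549 bases), the potassium channel Kv1.1, and in Tsc22d1 (547 bases). The narrowest were in Vps37b (99 bases), a subunit of the ESCRT-I sorting complex, Pigc and B3gnt2 (100 bases each) for innervated muscle, and in Atxn7l3, a subunit of the SAGA deubiquitinase module, Tubgcp6, of the gamma-tubulin ring complex, and Gfer, a mitochondrial sulfhydryl oxidase (100 bases each), for denervated muscle. In each of these narrow regions both replicates of the group called the same bases.

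The replicates of a group had a median fraction of joint bases in common of 0.667 in innervated-only regions and 0.566 in denervated-only regions. They called identical bases in 33 of 157 (21.0%) and 20 of 104 (19.2%). Pairs of 1 innervated and 1 denervated list, in regions of these lists alone, had medians of 0.505 to 0.6 and identical bases in 17.7% to 20.7%. The denervated-only values were within these ranges and the innervated-only values above them. In shared regions the medians were 0.721 to 0.751 over all pairs of lists. In 8 innervated-only regions (D8Ertd82e, Klf3, Mfsd5, Mtcl1, Nfrkb, Zfp2, Zfp282 and Zfp629) and 4 denervated-only regions (Ago4, Lhfpl2, Pogk and Taf3) the replicates shared only 1 or 2 bases, and these regions rest on touching calls. The authors' score was read as a rank within a list, with 100 for the smallest score. A region took the highest rank among its peaks in a list, and the wider shared regions could hold several such peaks. The medians were 41.4 and 36.5 for innervated-only regions in innervated 1 and 2, where shared regions had 53.0 and 53.8. For denervated-only regions the medians were 38.4 and 29.5 in denervated 1 and 2, against 56.5 and 51.0. What the score measures is not given in the sources used here. In 63.1% to 67.3% of cases the score of a group-specific region equalled that of a shared region of its gene, so the rank is partly a rank of genes.

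Most genes held 1 group-specific region, and 9 innervated and 7 denervated genes held more. Ago4, an Argonaute protein of the small RNA pathway, had 3 denervated-only regions in a row on the 5′ side of its shared region, at gaps of 1243, 1592 and 1841 bases. In Ago4 denervated 1 called 200, 100 and 150 bases in these regions, in the order of the gaps, denervated 2 called 200 bases in the middle one and just over 100 in the others, and 0 innervated peaks lay nearer than the shared region. The region nearest to the shared one is the one whose replicates shared 1 base. Kmt2a, a histone H3 lysine methyltransferase, had a pair of denervated-only regions 27136 and 27436 bases 5′ of the nearest of its 7 shared regions, 151 bases in both lists and 250 bases in both lists. The nearest innervated peak of Kmt2a, in innervated 1, lay only 1348 and 1648 bases from them. Erc1, a scaffold of the presynaptic active zone, Arhgap21, a GTPase-activating protein, Gfer and Zfhx2 also had 2 each. On the innervated side Tsc22d1 had 2 regions near the 5′ end, 90059 and 88224 bases from the shared region, called over 399 and 547 bases and over 447 and 398 bases in replicates 1 and 2. Ccdc127, Eif4g1, a scaffold of translation initiation, Fat4, an atypical cadherin, Itpkc, an inositol trisphosphate kinase, Rassf2, Synpo, Zbtb24 and Zcchc2 also had 2 each. Genes with an innervated-only region had a median of 1 shared region and 3 regions in all, genes with a denervated-only region 2 and 4, and all 2913 genes with a shared region 1 and 2. The counts of regions in all include the group-specific region for which a gene was chosen.

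Group-specific regions were found in genes of several functions. Over 15 gene lists, 156 genes had a shared region, of which 13 (8.33%) held an innervated-only and 7 (4.49%) a denervated-only region, beside 5.08% and 3.30% of all 2913 genes. These shares rest on few genes and carry no test. Of 41 regulators of transcription and chromatin, 4 held an innervated-only region (Ash1l, Chd7 and Bptf among them) and 5 a denervated-only region (Kmt2a, Setd2, Chd8, Purb and Nfil3). Chd7 and Bptf, both chromatin remodelling factors, had the same bases called in both innervated lists, just over 100 in each gene, 297 and 17552 bases from a shared region. Setd2, the H3 lysine 36 methyltransferase, was called over 201 and 301 bases in denervated 1 and 2, 1749 bases 5′ of the nearer of its 2 shared regions. An innervated 2 peak lay 699 bases from this Setd2 region. Chd8, a chromatin remodeller, was called just over 100 and 151 bases, 1726 bases 3′, with an innervated 1 peak only 49 bases away.

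Of 13 genes of excitation and calcium handling, Scn4a, the sodium channel of skeletal muscle, held an innervated-only region (201 and 151 bases, 20768 bases 5′ of its shared region) and Kcnc4, a voltage-gated potassium channel, held a denervated-only region (199 and 396 bases, 9956 bases 5′). A denervated 1 peak lay 6893 bases from the Scn4a region. Of 27 genes of growth and anabolic signalling, Igf2r, the receptor that clears insulin-like growth factor 2, and Sos1, a Ras exchange factor, held innervated-only regions, and 0 held a denervated-only one. In Igf2r the region at the start was 201 and 151 bases wide in innervated 1 and 2, and the nearest denervated peak lay 85403 bases away, in the shared region. In Sos1 a denervated 1 peak lay 198 bases from the region. Of 12 genes of mitochondria and fuel metabolism, Ppp1r3c, a glycogen-targeting phosphatase subunit, and Pdp1, which activates pyruvate dehydrogenase, held innervated-only regions, and Nrf1, a transcription factor for mitochondrial genes, a denervated-only region of just over 100 bases in each list. Hspg2 and Fat4 of 15 matrix and adhesion genes, Usp34, a deubiquitinase, of 11 genes of ubiquitin ligases and atrophy, and Synpo, an actin-binding protein, of 13 sarcomere and cytoskeleton genes held innervated-only regions, and 0 genes of these 3 lists held a denervated-only one. Group-specific regions were found in 0 of 4 neuromuscular junction and denervation response genes with a shared region, and in 0 of 8 genes that write, read or erase m6A. Of all 2913 genes with a shared region, 5.08% held an innervated-only and 3.30% a denervated-only region. At such shares a short list can easily hold 0, so these counts of 0 show no trait of a list.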

How the data were processed

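Each captured library had 1 peak list (BED12), called against an input per the file names. Per the submitters' processing notes, STAR 2.4.2a, ChIPseeker and the mm10 build were used; the sources used here do not name the peak caller. The deposited value of each peak is a score, per the file headers, and it was used only as a rank within a list. Columns of other series numbered 0.

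Peaks sharing at least 1 block base on a strand were linked, and regions of both lists of 1 group and none of the other were kept where the gene name of the list also named a region of all 4 lists. Of 5987 gene names, 5973 matched RefSeq. The members and gene lists were chosen with earlier results of these data known. Genes were named by rule: the 5 nearest, 5 farthest, 3 widest and 3 narrowest regions per group, the 5 nearest to the threshold, genes with several regions, and up to 4 per gene list; Nfil3, Klf3 and other genes given only in short lists, Tceanc2 and Cdk13 were added after their values were seen. Intervals are exact binomial (Clopper-Pearson, 95%). No test was run. A few named genes are not reported here. Alternatives changed the linking, the score filter, the number of peaks per list, the distance to the other group, the gene symbols and the lists used. The planned motif search in peaks and distances along exons were not run, because no genome was used here. Python 3.11.15, pandas 2.3.3, numpy 2.4.6, scipy 1.17.1 and matplotlib 3.10.9 were used, and linking was checked on simulated lists.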

Additional observations from a re-analysis of the deposited data

How the results depend on the processing

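Counts and gap shares moved with the linking, and no alternative changed the order of the 5′ shares. With reciprocal overlap of 50% there were 309 innervated-only and 241 denervated-only regions, 56.6% and 61.8% within 500 bases of a shared region, and 59.3% of denervated-only regions on the 5′ side. With peaks up to 100 bases apart linked, 31.0% of innervated-only regions and 33.8% of 68 denervated-only regions lay within 500 bases. Without regions that had a peak of the other group within 500 bases, 74 and 44 were left, 2.70% and 6.82% of them that close, and 81.8% of the 44 lay 5′; the low shares follow from the construction. The 50% of peaks with the smallest scores gave 30 and 26 regions, with 53.8% of the 26 on the 5′ side. The 50% with the largest scores gave 51 and 48, with 23.5% and 27.1% within 500 bases and 58.3% of the 48 on the 5′ side. Why these values moved was not tested. Leaving out 1 list at a time, so that a group rests on 1 list, gave 421 to 655 innervated-only regions, 43.5% to 51.6% of them within 500 bases and 49.0% to 55.6% on the 5′ side, and 273 to 658 denervated-only regions, 51.0% to 55.2% and 55.8% to 66.3%. Whole spans in place of blocks, lists cut to 9327 peaks, and 2 alternatives chosen after seeing the data (current gene symbols, and no regions near the 5′ end of the gene) kept the counts within 1.5 times and the shares within their intervals. Median gaps ran from 294 to 3785 and from 247 to 16336.5 bases over the alternatives, and median widths from just over 100 bases, where a group rested on 1 list, to 250 and 246. Of 39 innervated and 29 denervated named genes, 31 and 21 still held a group-specific region with reciprocal overlap, 23 and 14 without a near peak of the other group, and 4 and 2 among the smallest scores. No paired analysis was possible because the labels do not say whether replicate numbers mark animals, although the control was the opposite muscle. No test of any kind was run. Depth is unknown, so a missing call may be a matter of reads.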
